A study of Mus musculus with 15 samples.

Results

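The 48 genes described here carry out or control DNA replication and mitosis. They were chosen by role, with earlier results of these data known, and taken by symbol from a table of 33321 genes. They comprise 20 replication (S-phase) genes, 25 mitotic genes and 3 regulators of entry into S phase. Their RNA was counted in 15 bulk libraries of mouse corpus callosum, the large myelinated tract between the cerebral hemispheres, with 3 libraries in each of 5 groups. Sham-Ipsil was tissue where sham-operated mice had received saline. LPC-Ipsil was tissue injured by lysophosphatidylcholine (LPC), a membrane-dissolving lipid that strips myelin, and LPC-Contra was the tissue contralateral to it. LNIO-Ipsil was tissue injured by L-NIO, an inhibitor of nitric oxide synthase used to cause a small white matter stroke, and LNIO-Contra was its contralateral side. The 4 injury groups date from day 4, and no day is named for sham tissue. The labels give no strain, age or sex and do not tie libraries to individual animals, and no contralateral sham tissue is among the groups.

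A dividing cell copies its genome in S phase and separates the copies in mitosis. The E2F transcription factors switch on the replication genes at the boundary of G1 and S phase, and many mitotic genes are switched on later, in G2, through a cell cycle homology region (CHR) and CCAAT boxes in their promoters. In injured adult white matter, microglia and oligodendrocyte precursors are the cell types best known for dividing, while neurons and mature oligodendrocytes have left the cell cycle. Because the samples were bulk tissue, more dividing cells and more RNA of these genes per cell cannot be told apart.

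Promoter letters differed between the classes. Of the 48 members, 40 had a promoter in RefSeq's table (build GRCm38.p6), from 250 bases before to 50 bases after the start of the gene. An E2F match was TTGGCGC on either strand, with the variants of this motif spelled TTCCCGC and otherwise TTGCCGC and otherwise TTCGCGC. A CHR match was TTTGAA on either strand, or its variant spelled TTCGAA in the same way. A CCAAT box was CCAAT on either strand, and E2F matches may overlap one another. An E2F match was in 12 of 18 S-phase promoters (66.7%) and 3 of 20 mitotic promoters (15%), against 10.9% of all 27025 genes with a promoter and 18% of those tested here. A CHR match was in 16 of 20 mitotic promoters (80%) and 4 of 18 S-phase promoters (22.2%), against 21.7% of all and 16.5% of tested genes. Matches were counted per gene, taking the highest count of each motif over its listed promoters, and 5 members had more than 1 promoter. At least 2 CCAAT boxes and a CHR, not necessarily in the same promoter, were found for 50% of mitotic and 11.1% of S-phase genes. The shares were 3.08% of all and 3.19% of tested genes with a promoter. Such a match is a description of the letters, not a site shown to be bound. The 180 bases just before the start are printed for the 4 members with a listed promoter that passed the test after LPC (Mcm3, Rrm2, Uhrf1 and Ube2c). Mcm6, Cdk1 and Top2a are shown for their repeated matches, and Anln because its RNA went with mature oligodendrocyte markers across libraries. Capitals mark E2F, CHR and CCAAT matches on either strand, in the 5′ to 3′ direction of the gene.
Mcm3: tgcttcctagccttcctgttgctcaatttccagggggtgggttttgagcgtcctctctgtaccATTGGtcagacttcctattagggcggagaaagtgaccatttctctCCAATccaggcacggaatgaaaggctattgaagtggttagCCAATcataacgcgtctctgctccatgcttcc
Mcm6: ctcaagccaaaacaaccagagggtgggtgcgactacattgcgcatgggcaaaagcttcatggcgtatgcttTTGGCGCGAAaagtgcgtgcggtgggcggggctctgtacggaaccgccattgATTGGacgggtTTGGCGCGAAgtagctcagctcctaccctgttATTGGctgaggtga
Rrm2: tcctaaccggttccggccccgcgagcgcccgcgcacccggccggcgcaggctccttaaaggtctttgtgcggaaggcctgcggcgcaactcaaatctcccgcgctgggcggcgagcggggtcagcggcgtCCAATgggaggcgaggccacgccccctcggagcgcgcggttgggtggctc
Uhrf1: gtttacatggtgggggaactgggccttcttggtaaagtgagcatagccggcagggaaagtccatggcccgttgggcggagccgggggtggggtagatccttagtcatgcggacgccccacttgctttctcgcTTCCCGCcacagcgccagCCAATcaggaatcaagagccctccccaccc
Ube2c: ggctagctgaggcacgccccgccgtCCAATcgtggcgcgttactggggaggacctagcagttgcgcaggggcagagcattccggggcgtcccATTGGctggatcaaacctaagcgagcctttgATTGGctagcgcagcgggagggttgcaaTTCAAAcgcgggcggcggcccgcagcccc
Cdk1: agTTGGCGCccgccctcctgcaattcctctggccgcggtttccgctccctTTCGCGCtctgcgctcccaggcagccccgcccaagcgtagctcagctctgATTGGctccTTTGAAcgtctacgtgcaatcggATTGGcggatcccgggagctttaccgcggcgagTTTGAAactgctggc
Top2a: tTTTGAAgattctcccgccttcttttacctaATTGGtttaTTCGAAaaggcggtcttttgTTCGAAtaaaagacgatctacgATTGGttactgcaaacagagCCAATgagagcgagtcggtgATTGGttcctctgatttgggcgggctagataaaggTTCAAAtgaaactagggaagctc
Anln: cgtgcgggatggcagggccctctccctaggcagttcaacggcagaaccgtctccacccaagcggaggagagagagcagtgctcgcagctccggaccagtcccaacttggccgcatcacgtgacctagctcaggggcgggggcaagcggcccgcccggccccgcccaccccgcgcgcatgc

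Mcm3 lies at chr1:20820313-20820492 on the minus strand, Mcm6 at chr1:128359706-128359885 (minus), Rrm2 at chr12:24708074-24708253 (plus) and Uhrf1 at chr17:56303157-56303336 (plus), all GRCm38.p6 coordinates of the windows shown. The window of Ube2c is chr2:164769749-164769928 (plus), of Cdk1 chr10:69352913-69353092 (minus), of Top2a chr11:99024190-99024369 (minus) and of Anln chr9:22389207-22389386 (minus). In Mcm6 the 4 E2F matches overlap in pairs, as TTGGCGCGAA read on both strands, and the 3 E2F matches of Mcm3 lie outside the bases shown. Ube2c has its CHR 29 to 24 bases before the start, downstream of 3 CCAAT boxes. Top2a holds 4 CHR matches and 4 CCAAT boxes in these 180 bases, and Cdk1 holds 2 CHR, 2 CCAAT and 2 E2F matches. The Anln window holds none of the 3, and its 2 CHR matches lie outside it.

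Library totals ran from 14896445 to 20916606 counts, and the members had 5 to 3016 counts per library with none at 0. All 48 were among the 16795 genes tested, and 44 reached the filter level of 0.557 CPM (counts scaled to library size) in all 3 sham libraries. Markers of mature oligodendrocytes summed to between 16717 and 32792 CPM in every library. Damage-associated microglial markers separated the LPC-Ipsil libraries. Their score, the mean log2 CPM of the list relative to sham, was 4.77 and 3.93 in replicates 1 and 2 but 0.30 in replicate 3, within the sham range of -0.35 to 0.70. LPC-Ipsil replicate 3 also lay among the sham and contralateral libraries on the leading principal component (-11.3), and LPC-Contra replicate 2 stood apart on the next one (-62.9, 13.4% of the variance). Counts of called members in the comparisons of LPC-Ipsil are also given without replicate 3.

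The members differed widely in level. In FPKM (fragments scaled to gene length and library size, the authors' values), Anln had the highest mean over the 15 libraries (11.5), followed by Pcna (11.2), Ccnd1 (4.22), Mcm7 (4.10) and Mcm4 (3.27). Anln encodes anillin, a scaffold of the contractile ring in cytokinesis that mature oligodendrocytes also use in myelin. Pcna encodes the sliding clamp of DNA polymerase, which repair uses too. Mki67, the gene of the Ki-67 antigen of cycling cells, averaged 1.64 FPKM, Top2a (DNA topoisomerase II alpha) 1.49 and Cdk1 (the kinase that drives mitosis) 0.586. Fen1, the flap endonuclease of lagging-strand synthesis, was lowest at 0.202 FPKM and 0.30 to 0.78 CPM.

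The comparison of LPC-Ipsil with Sham-Ipsil asked what changed at the site of demyelinating injury. There 3 replication genes and 3 mitotic genes rose, by 0.72 to 1.75 on the log2 scale, and most other members had values above sham without passing the test. Called genes (edgeR quasi-likelihood, Benjamini-Hochberg adjusted p under 0.05 over all tested genes) numbered 6 of the 48 members, all higher, against 5.19% of all genes called and 4.19% called higher. They were 3 S-phase genes (Mcm3, Rrm2, Uhrf1) and 3 mitotic genes (Aurkb, Ccna2, Ube2c). At an unadjusted p under 0.05, 28 members were higher and 0 lower, where 12.8% of all genes were higher and 7.43% lower. Groups did not overlap for 24 members, all higher, where 14% of all genes were higher and 13.5% lower without overlap. The log2 fold change was above 0 for 47 of 48 members (51.4% of all genes), with a median of 0.76 against 0.01 over all genes.

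**Figure D1:**
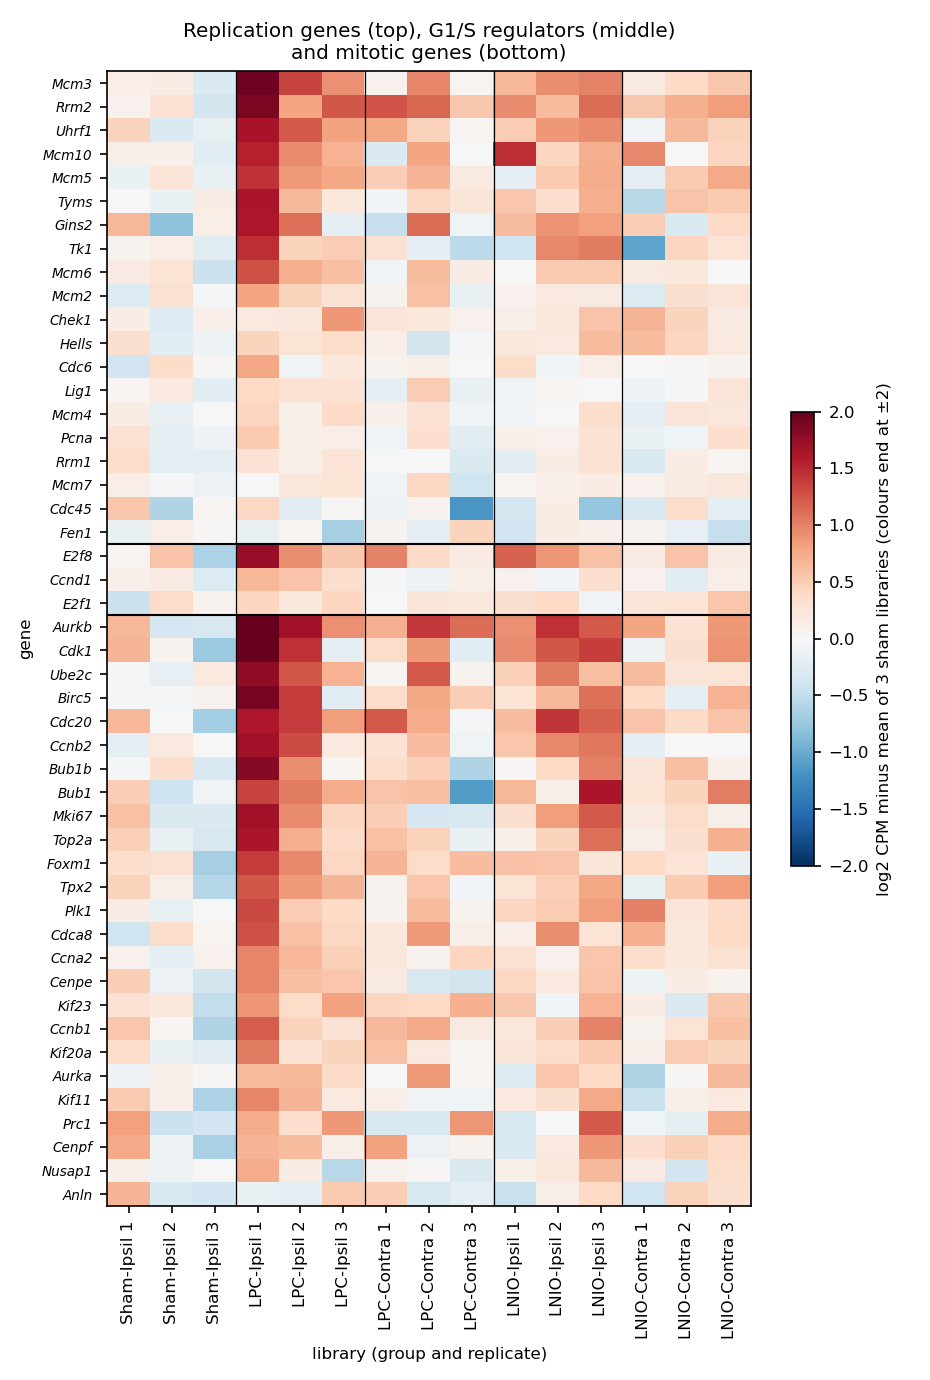
Level of each of the 48 genes (rows) in each of the 15 libraries (columns), as log2 CPM minus the mean of the 3 sham libraries, with red higher and blue lower. Rows run from the largest to the smallest LPC-Ipsil fold change within each class. LPC-Ipsil replicate 1 held the highest of the 15 values for 35 of the 48 genes. The like share over all genes was not counted, and this library lay above all sham libraries for 36% of all genes.

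Mcm3, a subunit of the replicative helicase, was at 4.36, 4.46 and 3.22 CPM in the sham libraries and at 15.6, 10.3 and 7.56 CPM in LPC-Ipsil replicates 1, 2 and 3. The groups did not overlap, and the fold change was 1.48 ± 0.29 (log2 ± SE, edgeR adjusted p = 0.0243), about the same as that of Rrm2. Rrm2, the regulated subunit of ribonucleotide reductase, which makes the building blocks of DNA, went from 2.09, 2.43 and 1.51 CPM to 7.61, 3.50 and 4.84 CPM (1.40 ± 0.31, adjusted p = 0.0245). Its partner subunit Rrm1, which cells keep through the cycle, was at 28.0, 19.1 and 18.8 CPM in sham and 26.3, 23.3 and 26.2 CPM in LPC-Ipsil, with overlapping groups (0.20 ± 0.18, adjusted p = 0.589). Uhrf1, which maintains DNA methylation on newly copied DNA, was at 4.12, 2.43 and 2.72 CPM in sham and 9.66, 7.23 and 5.32 CPM in LPC-Ipsil (1.26 ± 0.29, adjusted p = 0.0277), again without overlap.

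The 6 genes of the helicase ring Mcm2 to Mcm7, whose proteins work as a single complex, had log2 fold changes from 0.17 to 1.48. Beside Mcm3, Mcm5 had a log2 fold change of 1.06 ± 0.29 (adjusted p = 0.0504) and Mcm6 of 0.88 ± 0.25 (adjusted p = 0.0517), both just short of a call by edgeR and without overlap of the groups, and DESeq2 called both. Mcm2 was at 4.07, 6.15 and 4.88 CPM in sham and 8.69, 6.80 and 6.17 CPM in LPC-Ipsil (0.52 ± 0.24, adjusted p = 0.238). Mcm4 (0.31 ± 0.17) and Mcm7 (0.17 ± 0.17) overlapped with sham. These 2 had the highest sham levels of the ring, 11.4 and 18.2 CPM, against 4.02 to 7.49 CPM for the other 4. Whether the members of the ring differed from each other was not tested.

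Of the genes that load and start the helicase, Mcm10 had a log2 fold change of 1.16 ± 0.40 and Gins2 of 0.97 ± 0.53, while Cdc6, the loader, had 0.34 ± 0.30 and Cdc45, a helicase cofactor, 0.02 ± 0.41, and 0 of these 4 were called. The nucleotide enzymes Tyms (thymidylate synthase, 0.98 ± 0.37) and Tk1 (thymidine kinase, 0.91 ± 0.45) did not overlap with sham and did not pass. Pcna was at 32.4, 23.2 and 24.8 CPM in sham and 38.1, 28.8 and 29.0 CPM in LPC-Ipsil (0.25 ± 0.18, adjusted p = 0.485). The groups overlapped. Lig1 (DNA ligase, 0.33 ± 0.19), Hells (a chromatin remodeler, 0.35 ± 0.21) and the checkpoint kinase gene Chek1 (0.47 ± 0.26) were also small, and Fen1 was the member below 0 (-0.26 ± 0.39).

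Among mitotic genes, Aurkb, the kinase of the chromosomal passenger complex, had the highest fold change of the 48. It was at 1.20, 0.541 and 0.553 CPM in sham and 3.742, 2.551 and 1.451 CPM in LPC-Ipsil (log2 1.75 ± 0.41, adjusted p = 0.028). Ccna2, the cyclin of S phase and G2, went from 5.20, 4.33 and 5.23 CPM to 9.72, 7.80 and 6.83 CPM (0.72 ± 0.19, adjusted p = 0.0421). Ube2c, the ubiquitin-conjugating enzyme with which the anaphase-promoting complex ends mitosis, went from 1.55, 1.42 and 1.86 CPM to 5.73, 3.92 and 2.66 CPM (1.34 ± 0.37, adjusted p = 0.0479). In these 3 genes every LPC-Ipsil library lay above every sham library, replicate 1 was highest and replicate 3 lowest.

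Of Mki67 and Top2a, the usual markers of proliferation, edgeR called neither, and DESeq2 called Mki67. Mki67 was at 18.4, 9.94 and 9.96 CPM in sham and 39.4, 23.5 and 16.6 CPM in LPC-Ipsil (1.05 ± 0.34, adjusted p = 0.0922), and LPC-Ipsil replicate 3 lay below sham replicate 1. Top2a was at 13.8, 8.93 and 7.95 CPM in sham and 31.0, 16.5 and 12.9 CPM in LPC-Ipsil (0.98 ± 0.34, adjusted p = 0.119), with the same overlap. Cdk1 had the next largest fold change after Aurkb among mitotic genes (1.46 ± 0.53), yet its LPC-Ipsil values of 8.692, 4.819 and 1.451 CPM spanned most of the range seen in the study. The mitotic cyclin gene Ccnb2 (1.24 ± 0.35, adjusted p = 0.0525) and Cdc20, the activator of the anaphase-promoting complex (1.29 ± 0.40, adjusted p = 0.0766), came close to the threshold in edgeR, and DESeq2 called both. Birc5 (survivin, 1.31 ± 0.43), the spindle checkpoint genes Bub1 (1.07 ± 0.49) and Bub1b (1.14 ± 0.44), and Foxm1, a transcription factor of mitotic genes (0.94 ± 0.30), had fold changes of like size and were not called by edgeR, while DESeq2 called Birc5 and Foxm1. Ccnb1, the partner cyclin of Cdk1 (0.66 ± 0.34), Plk1, a mitotic kinase (0.83 ± 0.31), and Cdca8, another passenger subunit (0.81 ± 0.33), were not called by edgeR or DESeq2.

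Most spindle genes had smaller fold changes. Tpx2, which activates Aurora A, had 0.91 ± 0.30, the kinesin genes Kif23 0.68 ± 0.30, Kif20a 0.62 ± 0.27 and Kif11 0.59 ± 0.30, the centromere motor gene Cenpe 0.70 ± 0.25, and Aurka itself 0.595 ± 0.36. Prc1, which bundles the central spindle (0.55 ± 0.48), Cenpf (0.39 ± 0.37) and Nusap1 (0.21 ± 0.29) were lower still. None of these spindle genes was called by edgeR, and Tpx2, Kif23, Kif20a and Cenpe had an unadjusted p under 0.05. DESeq2 and limma on FPKM called none of them either.

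**Figure D2:**
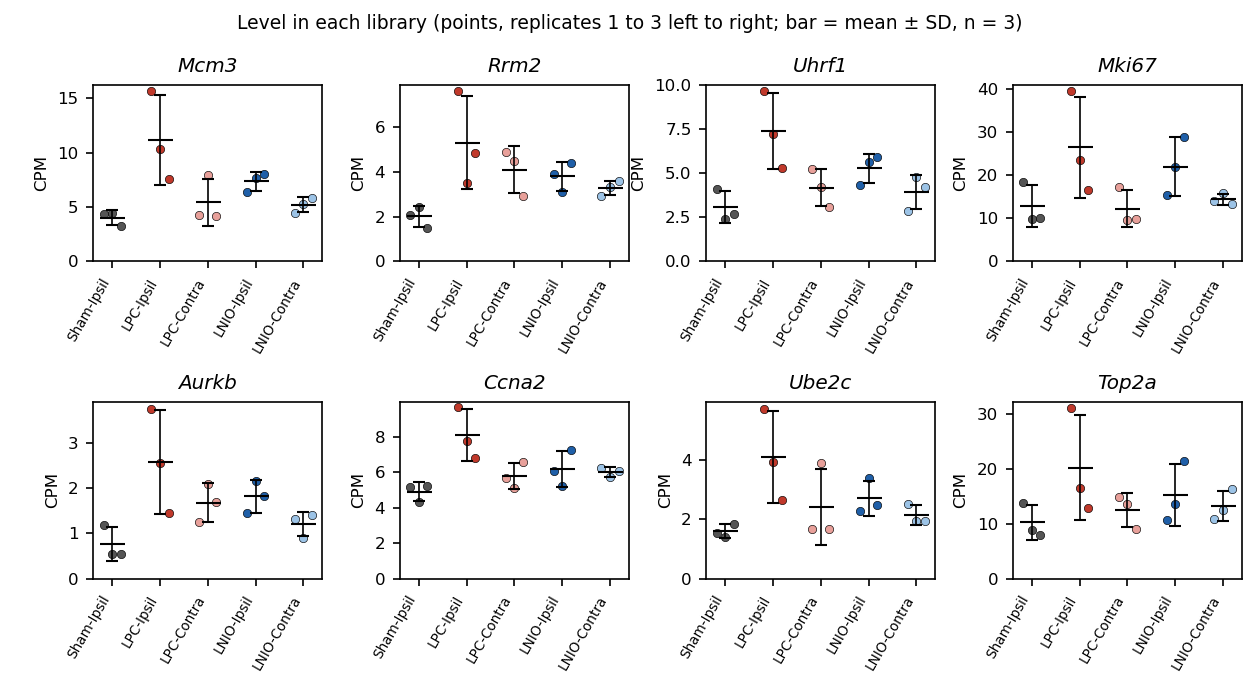
CPM of 8 genes in each library: the 6 called after LPC plus Mki67 and Top2a, with points for replicates 1 to 3 from left to right and bars for the mean ± SD of 3 libraries. LPC-Ipsil replicate 1 is the highest point in each panel, for example 39.4 CPM for Mki67 and 3.74 CPM for Aurkb.

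The 3 regulators of S-phase entry had no call. Ccnd1, cyclin D1, which links growth signals to the cycle and is also made by glia that do not divide, was at 20.5, 21.4 and 15.8 CPM in sham and 30.4, 28.3 and 24.4 CPM in LPC-Ipsil. The groups did not overlap (0.53 ± 0.15, adjusted p = 0.0609). E2f8, a repressor made in S phase, had 1.17 ± 0.41 and E2f1, an activator, 0.32 ± 0.20, both overlapping sham. At an unadjusted p under 0.05 Ccnd1 and E2f8 were higher. DESeq2 called 1 of the 3, Ccnd1, and limma on FPKM called 0.

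The 6 calls depended on single libraries. Without LPC-Ipsil replicate 3, 18 members were called (6 S-phase, 11 mitotic and Ccnd1), all higher, including the 6 and also Mki67, Top2a, Cdk1 and Mcm5, with 9.62% of all genes called; without LPC-Contra replicate 2 there were 10 (7.07% of all genes), and without both 22 (13.8%). No member was called when LPC-Ipsil replicate 1 or 2 or any sham library was left out, when only these 6 libraries were fitted, or by limma on FPKM. The share of all genes called is not given here for these settings, so the loss may not be particular to the members. With 1 library out, log2 fold changes ran from 1.16 to 1.69 (Mcm3), 1.05 to 1.63 (Rrm2) and 1.02 to 1.52 (Uhrf1). They ran from 1.39 to 2.23 for Aurkb, 0.57 to 0.83 for Ccna2 and 1.03 to 1.57 for Ube2c. DESeq2 called 14 with the 6 among them (9.01% of all genes).

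The classes were then set side by side. Of the S-phase genes 8 of 20 (40%) were higher at an unadjusted p under 0.05, and of the mitotic genes 18 of 25 (72%). Over all genes the share was 12.8%. By non-overlap of the groups the classes were closer. Without overlap 11 of 20 S-phase and 12 of 25 mitotic genes were higher, against 14% of all genes. The median log2 fold change was 0.50 for S-phase and 0.83 for mitotic genes, and 0.51 and 0.997 without LPC-Ipsil replicate 3. Each class had 3 calls, 15% of S-phase and 12% of mitotic genes, against 5.19% of all genes. A difference between the classes was not tested. Weakly and strongly expressed members were compared within each class by mean FPKM over all libraries: the median was 0.35 for the 11 S-phase genes above the members' median level and 0.52 for the 9 below it, and 0.91 and 0.75 for 11 and 14 mitotic genes.

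For each library a class score was taken as the mean over the class of log2 CPM relative to sham. In LPC-Ipsil replicates 1, 2 and 3 the S-phase score was 0.93, 0.49 and 0.40 and the mitotic score 1.28, 0.79 and 0.39. The sham libraries ran from -0.10 to 0.14 for S-phase and from -0.29 to 0.34 for mitotic genes. All LPC-Ipsil libraries were thus above all sham libraries on both scores, by the least in replicate 3 for mitotic genes. The S-phase score exceeded sham by 0.61 on average (LPC-Ipsil SD 0.29, n = 3) and the mitotic score by 0.82 (SD 0.44). S-phase minus mitotic was -0.35, -0.30 and 0.01 in LPC-Ipsil replicates 1, 2 and 3, against -0.20 to 0.19 in sham.

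**Figure D3:**
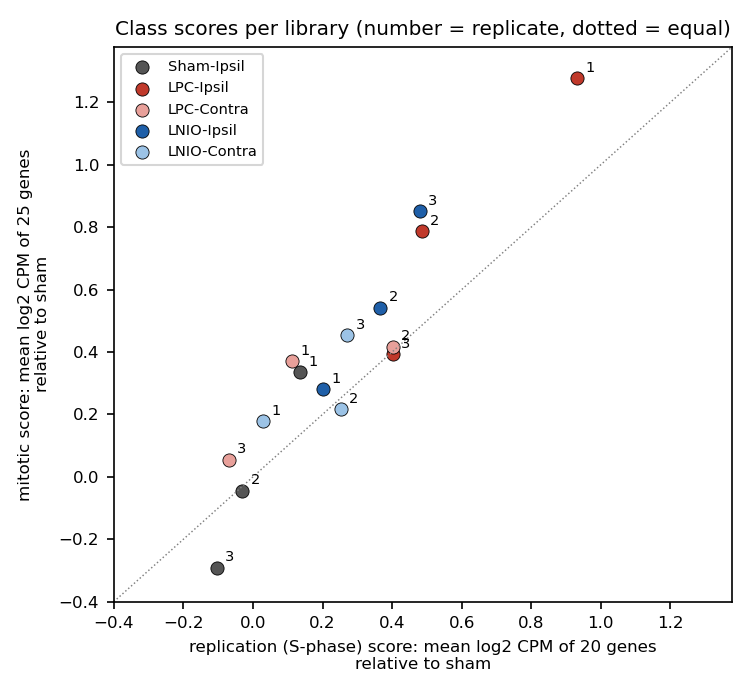
Replication (S-phase) score, x axis, against mitotic score, y axis, for the 15 libraries, both as mean log2 CPM relative to sham, with the replicate number beside each point. LPC-Ipsil replicate 1 lies farthest to the upper right, at 0.93 and 1.28, LPC-Ipsil replicate 3 and LPC-Contra replicate 2 nearly coincide at an S-phase score of 0.40, and 11 of the 15 points lie above the dotted line of equal scores.

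LPC-Ipsil replicate 3, the library without the microglial score of its group, lay above all 3 sham libraries for 14 of 20 S-phase genes and 14 of 25 mitotic genes, where 25.8% of all genes did. LPC-Ipsil replicate 1 did so for 16 S-phase and 22 mitotic genes (36% of all genes) and replicate 2 for 13 and 20 (32.2%). Replicate 3 was the lowest of its group for 21 of 25 mitotic genes but 10 of 20 S-phase genes. The like share over all genes was not counted.

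Markers of several cell types moved with the members after LPC, and their part in the result was not tested. All 12 damage-associated microglial markers were detected in every group, and their summed level was 985 to 1008 CPM in sham and 1063 to 5439 CPM in LPC-Ipsil, with 10 of 12 called higher. All 9 homeostatic microglial markers present in the table were called higher, at 331 to 394 CPM in sham and 465 to 2447 CPM in LPC-Ipsil. The 10 precursor markers summed to 1074 to 1338 CPM in sham and 1455 to 1623 CPM in LPC-Ipsil, with 3 called higher. The precursor score was 0.67, 0.48 and 0.53 in LPC-Ipsil replicates 1, 2 and 3. In the same order the astrocyte score was 0.80, 0.58 and 0.33 and the endothelial score 0.52, 0.64 and 0.35. The neuroblast score was 0.48, 0.38 and 0.32, so precursors were not the only list above 0 in replicate 3. Astrocyte markers had 2 of 10 and endothelial markers 1 of 10 called higher, neuron markers 1 of 10 called lower, and marker lists of pericytes, fibroblasts and monocytes 0 called. Mature oligodendrocyte markers had 0 of 12 called, with a median log2 fold change of 0.22. Their sum was 21193 to 32792 CPM in LPC-Ipsil and 16717 to 26846 CPM in sham, so their RNA was not lower at the LPC site. Of 8 neuroblast markers 1 was called higher, though they summed to 290 to 307 CPM in LPC-Ipsil and 290 to 320 CPM in sham. Of 8 T cell markers 7 were in the table, 2 could be tested and 1 was called higher, and they summed to 3.89 to 32.1 CPM in sham against 17.4 to 31.5 CPM in LPC-Ipsil, with 3 at 0 in every sham library and 1 at 0 in every LPC-Ipsil library.

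At the L-NIO injury site 0 members were called against sham by edgeR, DESeq2 or limma on FPKM, and edgeR called 0% of all genes. At an unadjusted p under 0.05, 10 members were higher and 0 lower, 20.8% of them, where 5.77% of all genes were higher and 3.1% lower. They were Mcm3, Mcm10, Rrm2 and Uhrf1 of the S-phase genes, E2f8, and the mitotic genes Mki67, Cdk1, Ccnb2, Aurkb and Cdc20. The log2 fold change was above 0 for 44 members (46.8% of all genes), with a median of 0.41 against -0.02 over all genes, 0.33 for S-phase and 0.48 for mitotic genes. Groups did not overlap for 13 members, all higher, where 10.1% of all genes were higher and 7.86% lower without overlap.

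Mcm3 was at 6.35, 7.67 and 8.03 CPM in LNIO-Ipsil, all above the sham libraries, with a log2 fold change of 0.88 ± 0.29 (edgeR adjusted p = 0.337). It was called here once LPC-Ipsil replicate 3 and LPC-Contra replicate 2 were both left out, with 2.74% of all genes, and no other member was. Mki67 was at 15.3, 21.8 and 28.8 CPM (0.79 ± 0.34, adjusted p = 0.523), with replicate 1 inside the sham range. Top2a was at 10.7, 13.5 and 21.4 CPM (0.58 ± 0.34, adjusted p = 0.696). Aurkb, at 1.448, 2.169 and 1.835 CPM, was again the member with the highest fold change (1.25 ± 0.41, adjusted p = 0.333) and did not overlap with sham.

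Mcm2 was at 5.29, 5.73 and 5.65 CPM (0.145 ± 0.24, adjusted p = 0.919), and Pcna at 28.4, 28.1 and 32.4 CPM (0.15 ± 0.18, adjusted p = 0.883). All of these values lay inside the sham range. Ccnd1 was at 20.3, 18.4 and 24.2 CPM (0.13 ± 0.15, adjusted p = 0.878) with replicate 3 above the sham range. Rrm2, by contrast, was at 3.90, 3.11 and 4.41 CPM, above every sham library (0.93 ± 0.31, adjusted p = 0.333).

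The L-NIO libraries differed among themselves. S-phase scores were 0.20, 0.37 and 0.48 and mitotic scores 0.28, 0.54 and 0.85 in replicates 1, 2 and 3. Replicate 3 was highest of its group for 33 of 48 members and replicate 1 lowest for 33, ranks that were not counted over all genes. The share of counts from mitochondrially encoded genes was 15.9% in replicate 1 and 9.66% and 10.4% in replicates 2 and 3, and the damage-associated microglial scores were 2.42, 3.30 and 2.87. Those 12 markers summed to 1781 to 3493 CPM in LNIO-Ipsil, with 0 called by edgeR, 8 by DESeq2 and 10 higher at an unadjusted p under 0.05. The precursor scores were -0.06, 0.38 and -0.02. The part of these in the members' values was not tested.

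**Figure D4:**
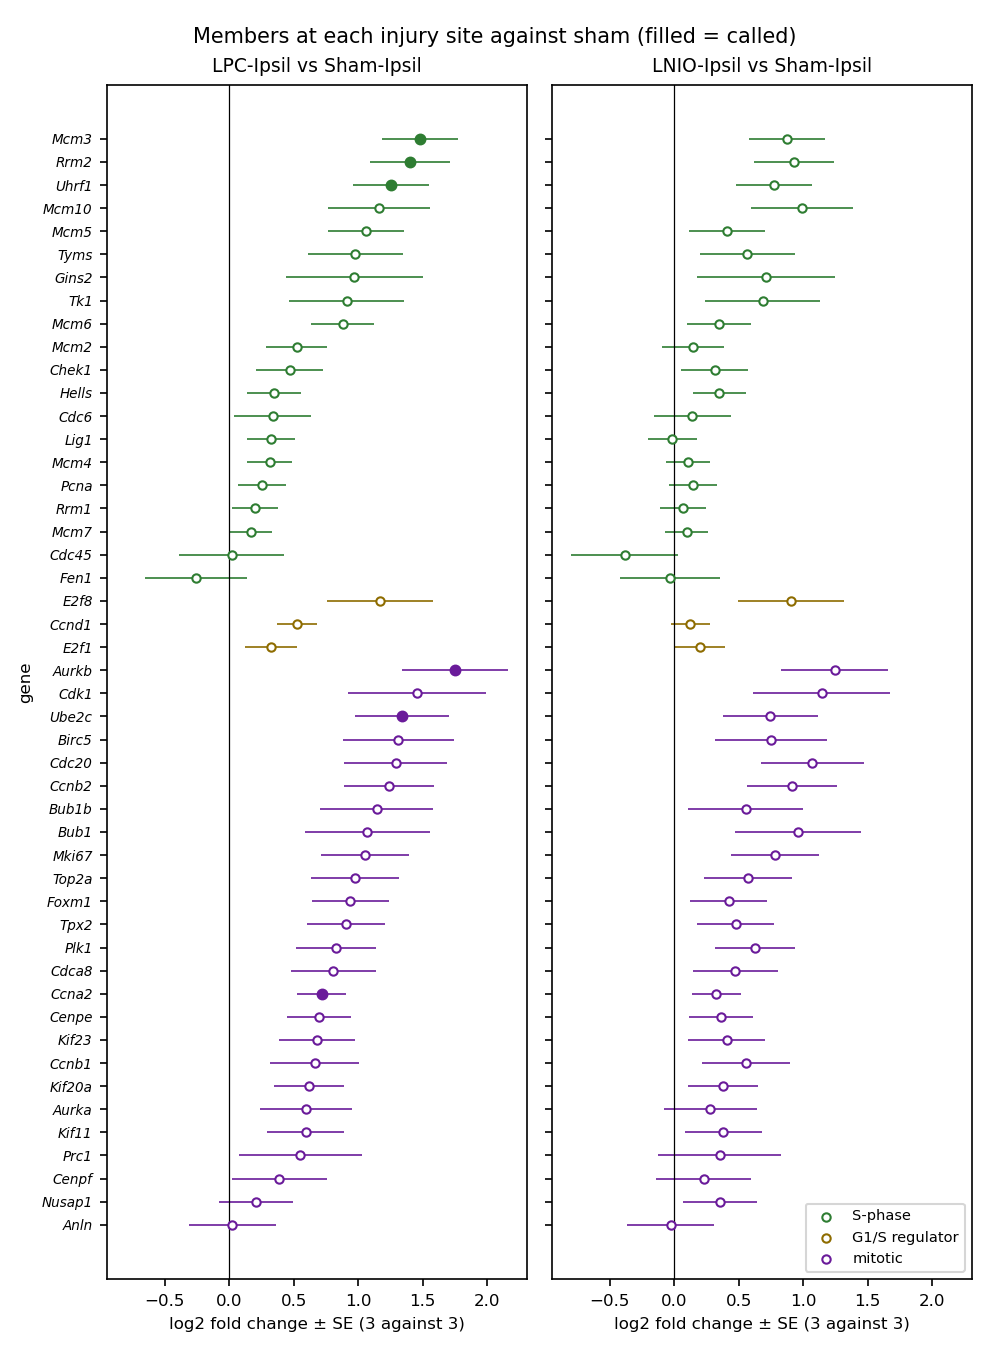
Log2 fold change ± SE of each of the 48 genes at the LPC site (left) and the L-NIO site (right) against the same 3 sham libraries, coloured by class, with filled points for called genes. On the left 47 points lie above 0 and 6 are filled, and on the right 44 lie above 0 and 0 are filled.

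The panels share their sham libraries, so their likeness is not independent evidence, and the injuries were compared directly instead. Between LNIO-Ipsil and LPC-Ipsil 0 members were called by edgeR, DESeq2 or limma on FPKM (0% of all genes by edgeR), and the median log2 difference was -0.27 against -0.04 over all genes, with 3 members above 0 (43.6% of all genes). At an unadjusted p under 0.05, 3 members were lower after L-NIO and 0 higher, where 5.44% of all genes were lower and 2.95% higher. They were Mcm5 (-0.65 ± 0.29), Mcm6 (-0.53 ± 0.24) and Ccnd1 (-0.40 ± 0.15, adjusted p = 0.559), each without overlap of the groups. This count of 3 lies near the share over all genes. Groups did not overlap for 5 members, all lower, where 7.61% of all genes were lower and 6.07% higher without overlap. Without LPC-Ipsil replicate 3 edgeR called 0 members and 1.41% of all genes between the injuries, and the members' median difference was -0.40 against -0.025 over all genes.

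Against its own contralateral side, LPC-Ipsil had 0 members called by edgeR (0% of all genes), 4 by DESeq2 (Mcm3, Ccnd1, Mki67 and Cenpe, with 4.17% of all genes) and 0 by limma on FPKM. At an unadjusted p under 0.05, 14 members were higher and 0 lower, where 8.53% of all genes were higher and 3.59% lower. The fold change was above 0 for 47 of 48 (51% of all genes), and 11 members were higher without overlap and 0 lower (7.06% and 6.59% of all genes). Mcm3 was at 4.23, 7.94 and 4.15 CPM in LPC-Contra (1.04 ± 0.29, adjusted p = 0.0919), and LPC-Contra replicate 2 overlapped with LPC-Ipsil. Mki67 was at 17.2, 9.69 and 9.85 CPM there (1.11 ± 0.34, adjusted p = 0.137). Ccnd1 was at 18.6, 17.5 and 20.7 CPM, below every LPC-Ipsil library (0.55 ± 0.15, adjusted p = 0.093). Top2a (0.68), Mcm2 (0.33) and Pcna (0.24) had smaller fold changes. Without LPC-Ipsil replicate 3 edgeR called 6 members (Mcm3, Ccnd1, Mki67, Cdk1, Ccnb2 and Birc5), with 5.55% of all genes called.

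LNIO-Ipsil against LNIO-Contra gave 0 calls by edgeR, DESeq2 or limma on FPKM (0% of all genes by edgeR). Same-numbered libraries of these sides deviated together. Fitted alone with the replicate number as a block, they gave 684 called genes of 16196 (4.22%) and 0 members, a fit chosen after seeing the data. For each of the 3 replicate numbers the injured side had the higher scores. The S-phase scores of LNIO-Contra replicates 1, 2 and 3 were 0.03, 0.25 and 0.27, and the mitotic scores 0.18, 0.22 and 0.46. In the unpaired fit only Ccnb2 had an unadjusted p under 0.05 (0.98 ± 0.35, adjusted p = 0.498), where 4.83% of all genes were higher and 1.25% lower. The fold change was above 0 for 38 members (46.1% of all genes), and 9 were higher without overlap and 0 lower (7.91% and 5.24% of all genes). The fold changes of the members named in every comparison were 0.62 for Mki67, 0.21 for Top2a, 0.03 for Mcm2, 0.50 for Mcm3, 0.11 for Pcna, 0.13 for Ccnd1 and -0.11 for Anln. The difference of the side effects between the injuries, tested as an interaction, gave 0 calls by edgeR (0% of all genes), DESeq2 or limma on FPKM and 0 members at an unadjusted p under 0.05, where 0.578% of all genes were higher and 0.441% lower. The interaction was above 0 for 6 members (43.4% of all genes).

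On the contralateral sides no member was called. In LPC-Contra the fold change against sham was above 0 for 38 of 48 members (53.4% of all genes; median 0.21, against 0.02 over all genes). In LNIO-Contra it was above 0 for 42 (50.8% of all genes; median 0.27, against 0.004). Groups did not overlap for 5 members in LPC-Contra, all higher (7.06% of all genes higher, 8.07% lower), and for 6 in LNIO-Contra, all higher (5.01% higher, 5.13% lower). By edgeR, DESeq2 and limma on FPKM 0 members were called, where edgeR called 0.00595% of all genes for LPC-Contra and 0% for LNIO-Contra. At an unadjusted p under 0.05 Rrm2 (1.04 ± 0.31) and Aurkb (1.13 ± 0.42) were higher in LPC-Contra and Rrm2 (0.71 ± 0.31) in LNIO-Contra, where 4.24% and 1.05% of all genes were higher and 5.43% and 1.67% lower. No member was lower at that level, and the higher count in LPC-Contra, 4.17% of members, lies near the share over all genes. Rrm2 was at 4.90, 4.49 and 2.92 CPM in LPC-Contra and at 2.94, 3.31 and 3.60 CPM in LNIO-Contra, above all sham libraries in all 6. LPC-Contra replicate 2 had the highest S-phase score of the contralateral libraries (0.40), and it lay above all sham libraries for 29 members, at 37.3% of all genes.

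Anln, the highest member by level, had the smallest LPC fold change of the mitotic genes. It was at 167, 84.1 and 80.1 CPM in the sham libraries and at 95.2, 92.0 and 149.8 CPM in LPC-Ipsil (0.025 ± 0.34, adjusted p = 0.979). In LNIO-Ipsil it was at 76.1, 112.7 and 136.4 CPM (-0.03 ± 0.34, adjusted p = 0.992), and in the contralateral libraries at 79.0 to 147.0 CPM. The groups overlapped throughout, and the sign of the small fold changes turned with the library left out. Over the 15 libraries, which share groups, log2 CPM of Anln went with the score of 12 mature oligodendrocyte markers (Pearson r = 0.714, permutation p = 0.0033, adjusted over 3 relations 0.0099; Spearman rho = 0.686, permutation p = 0.00623, adjusted 0.0187). The permutations shuffled the 15 libraries without regard to group, so these p-values hold only if the libraries are exchangeable. Without LPC-Ipsil replicate 3 and LNIO-Contra replicate 3, the libraries farthest from the median score, r was 0.659 (n = 13). Sham-Ipsil replicate 1, with the highest Anln level (167 CPM) and a score of 0.516, was kept there. For Mki67 r was 0.077 (permutation p = 0.784, adjusted 0.94) and rho 0.146 (permutation p = 0.603), and for Ccnd1 r was 0.021 (permutation p = 0.94) and rho 0.007 (permutation p = 0.984). Leaving Anln out moved the mitotic score from 1.28 to 1.34 in LPC-Ipsil replicate 1.

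**Figure D5:**
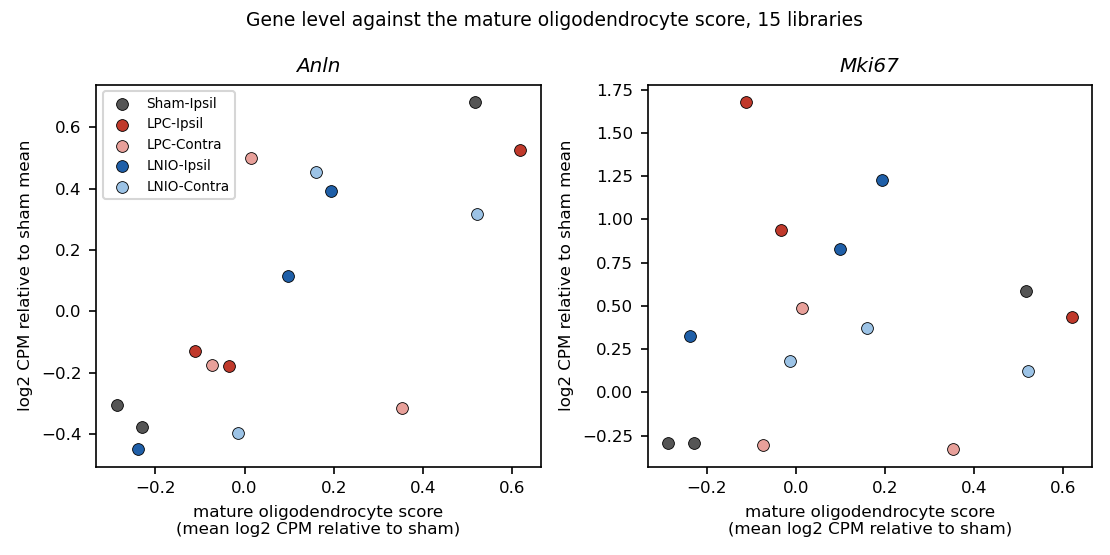
Log2 CPM relative to the sham mean of Anln (left) and Mki67 (right), y axes, against the mature oligodendrocyte score, x axes, for 15 libraries coloured by group. The correlation with the score is r = 0.714 for Anln and r = 0.077 for Mki67.

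Other cell cycle genes, listed by role but with earlier results of these data known, were counted at the LPC site in the same way. Of 64 further mitosis genes 62 were tested, and 7 were called higher and 0 lower by edgeR, where 4.19% of all genes were called higher. DESeq2 called 9, where it called 9.01% of all genes, and limma on FPKM called 0. Another count, at an unadjusted p under 0.05, gave 27 higher and 0 lower (12.8% and 7.43% of all genes), and the median log2 fold change was 0.66. Kif2c, a kinesin that takes apart microtubules at the centromere, went from 1.02, 1.08 and 0.905 CPM to 3.92, 2.32 and 1.87 CPM (1.43 ± 0.29, adjusted p = 0.0243). Troap, a spindle-associated protein, went from 0.299, 0.203 and 0.453 CPM to 2.84, 1.46 and 1.09 CPM (2.44 ± 0.44, adjusted p = 0.0243). Ncaph, a condensin subunit (1.20 ± 0.30, adjusted p = 0.0322), and Dlgap5, a spindle assembly factor (1.499 ± 0.38, adjusted p = 0.034), rose too. In all 4 the groups did not overlap.

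Of 50 further replication genes (origin, polymerase and fork proteins) 0 were called by edgeR, DESeq2 or limma on FPKM, 7 were higher and 3 lower at an unadjusted p under 0.05, and the median was 0.16. These counts lie near the shares over all genes, 12.8% higher and 7.43% lower. Of 12 G1 cyclins and kinases edgeR called 0, DESeq2 3 and limma on FPKM 0, with 6 higher and 0 lower at an unadjusted p under 0.05. Of 13 tested cell cycle inhibitors edgeR called 0, DESeq2 2 and limma on FPKM 0, with 3 higher and 0 lower. Over all genes DESeq2 called 9.01% at the LPC site. Of 11 targets of p53, the factor that halts the cycle after DNA damage, 0 were called by edgeR, DESeq2 or limma on FPKM and 0 had an unadjusted p under 0.05 (median 0.14). At the L-NIO site edgeR called 0 genes of these 5 lists, 12 further mitosis genes were higher at an unadjusted p under 0.05, with a median of 0.35, and 3 further replication genes were, with a median of 0.04, where 5.77% of all genes were higher. DESeq2 called 1 further mitosis gene there, and limma on FPKM called 0 genes of these lists. The share of all genes called by DESeq2 at the L-NIO site is not given here.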

How the data were processed

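RNA from 15 mouse corpus callosum libraries (TRIzol extraction, removal of ribosomal RNA, poly(A) selection, paired reads, per the labels' protocols) was analysed from 2 deposited tables. The authors deposited whole-number read counts per gene symbol and, in the other table, FPKM values. The submitters' processing notes list GRCm39, HISAT2 2.2.1 and R 4.4.2. How reads were counted, and with which strand setting, is not given in the sources used here. Genes that overlap, run antisense or have near-identical copies are therefore uncertain. All columns matched a library (0 unmatched).

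The main test was edgeR 4.0.16 under R 4.3.3 (robust quasi-likelihood fit, TMM factors 0.966 to 1.06, filterByExpr with minimum count 10 and total 15) in a model of all 15 libraries with a mean per group. CPM are TMM-scaled. Each SE was taken as the size of the log2 fold change over the root of its F statistic. Scores used log2 CPM with a prior count of 2. FPKM tests used limma 3.58.1 on log2(FPKM + 0.1), a scale that understates the change of low genes. DESeq2 1.42.0 was also run. After LPC limma also called 0 of the damage-associated and homeostatic microglial markers, of which edgeR called 10 and 9. Its 0 calls are therefore not particular to the members. Correlations used 100000 permutations. Test scripts were tested on simulated data. Replicate pairs differed beyond sampling noise (chi-square per degree of freedom 10.1 to 63.7). Because no label says that libraries were separate mice, a p-value here reflects only the library-to-library spread, part of which may be technical.

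Same-numbered LNIO-Ipsil and LNIO-Contra libraries deviated together from their group means (r = 0.599, 0.356 and 0.249 for replicates 1, 2 and 3). For LPC-Ipsil and LPC-Contra, replicate 1 did not (-0.036), while replicates 2 and 3 did to some degree (0.165 and 0.334). A shared animal and shared handling cannot be told apart here. No label names a shared animal. Members and lists were chosen with earlier results of these data known. By rule the text names up to 10 called members per comparison, always Mki67, Top2a, Mcm2, Mcm3, Pcna, Ccnd1 and Anln in comparisons of an injured group with sham or its contralateral side, and up to 4 called genes per other list. Other members were named for their role or after their values were seen.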

Additional observations from a re-analysis of the deposited data

How the results depend on the processing

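In this paragraph the share of all genes called stands in brackets after a count, where it is given. Against sham, the LPC-Ipsil count was 6 called members (5.19%), and 14 by DESeq2 (9.01%). It was 0 by limma on log2(FPKM + 0.1) and 0 with only the groups compared. With a library left out it was 0 to 18. It was 0 without LPC-Ipsil replicate 1 or 2 or any sham library. Without LPC-Ipsil replicate 3 it was 18 (9.62%), and without LPC-Contra replicate 2 it was 10 (7.07%). With both LPC-Ipsil replicate 3 and LPC-Contra replicate 2 left out, chosen after seeing the data, it was 22 (13.8%). LNIO-Ipsil against sham then had 1 (2.74%). The LPC-Ipsil count against LPC-Contra was 0 in the main analysis (0%), 4 by DESeq2 (4.17%) and 7 with both libraries out (7.5%). With 1 library out it was 0 to 6, the 6 without LPC-Ipsil replicate 3 (5.55%). The cause was not tested. With the replicate block the LPC count against sham was 5 (3.88%), and the block changed no other count of member calls. Fitting only the L-NIO sides with the replicate block, also chosen after seeing the data, called 684 of all genes (4.22%) and 0 members. The LPC sides alone gave 0 members (0%). Counts of the other comparisons stayed 0 under every setting run. DESeq2 size factors gave 6 (5.01%) and no low-count filter 4 (2.1%) for LPC against sham. Small fold changes turned sign. For Anln after LPC they were -0.005 without the filter, -0.004 with only the groups compared and -0.237 with both libraries out against sham, and -0.356 with both out against LPC-Contra. For Anln in LNIO-Ipsil against sham limma on FPKM gave 0.034. With 1 library out, Anln ran from -0.237 to 0.461 (LPC) and -0.244 to 0.414 (L-NIO) against sham and from -0.202 to 0.362 and -0.311 to 0.097 against the contralateral sides, Ccnd1 in LNIO-Ipsil against sham from -0.021 to 0.23, and Top2a and Mcm2 between the L-NIO sides from -0.116 to 0.416 and -0.119 to 0.145. With 1 library out the mean score difference from sham ran from 0.443 to 0.708 (S-phase) and 0.59 to 1.03 (mitotic) after LPC, and from 0.284 to 0.423 and 0.412 to 0.726 after L-NIO. All members passed the filter, so the score over filtered members equals the main score. Members had 5 to 3016 counts per library, and SEs against sham after LPC ran up to 0.53 (Gins2 and Cdk1).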
